A study of Mus musculus with 300 samples.

Results

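Heart and skeletal muscle of mice that had received only vehicle were compared gene by gene. The members were the 30 heart vehicle arrays and the 30 skeletal muscle vehicle arrays, 60 of the 300 arrays in the series, chosen by their labels and paired by the number of the mouse. The study dosed mice by mouth with agonists of the PPAR nuclear receptors and measured RNA in 4 tissues with Affymetrix Mouse Genome 430 2.0 arrays, in which each probe set reports the transcripts of a gene as a brightness. None of the animals described here received an agonist. The heart vehicle group held 10 mice on each of days 4, 8 and 15 of dosing, and the skeletal muscle vehicle group held the same 10 mice on each of those days. All 60 arrays therefore share the vehicle treatment, and the labels used here give no strain, genotype, sex, age, vehicle composition or muscle name, so each pair shares whatever these were, and the fibre types of the sampled muscle are not known. Each array is 1 tissue of 1 animal, and the number of arrays limits the precision. In a whole tissue piece, fewer cells of a type and less RNA per cell cannot be told apart.

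The authors' values appear to have been normalized separately within each tissue, since the array medians lay at 7.27 to 7.404 on the log2 scale in hearts and at 4.98 to 5.13 in skeletal muscle. Levels were therefore replaced by ranks within each array. A gene's percentile runs from 0 for the dimmest to 100 for the brightest of 18193 genes, and a tissue difference is the percentile in the heart minus the percentile in the skeletal muscle of the same mouse, in points. A point holds 181.93 genes, so differences near the top, where many muscle genes lie, come out small in points. Ranks counted from the brightest gene are given there for some genes. A percentile also depends on how bright a probe set is for its transcript, so each gene was set only against itself in the other tissue. Tissue and processing therefore cannot be told apart. Every heart array had Tnni3, cardiac troponin I, above every skeletal muscle array, and every skeletal muscle array had Myh4, a fast myosin, above every heart array, so all 60 arrays matched their tissue labels. Gene levels of arrays of the same tissue correlated with a median r of 0.993 among hearts and 0.987 among skeletal muscles, against 0.928 between a heart and a skeletal muscle array; these are correlations across genes, which are not independent replicates.

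Heart and skeletal muscle are both striated: actin and myosin filaments are arranged in sarcomeres and are switched on by calcium acting on troponin. Most sarcomere proteins come from small gene families whose members are used in the heart, in slow fibres or in fast fibres. Heart muscle cells are coupled electrically at intercalated discs and release calcium through Ryr2, whereas skeletal fibres are fused cells that are excited at the neuromuscular junction and release calcium through Ryr1. The heart burns mainly fatty acids and lactate, and fast skeletal fibres rely on glycogen and glycolysis during bursts of work.

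Promoters of 6 sarcomere genes are printed here because each belongs to a gene that differed between the tissues, and because they carry letters bound by factors known from heart or skeletal muscle. Each is the stretch of 250 bases before the start of the gene in RefSeq (build GRCm38.p6), on the strand of the gene. Capitals mark GATAA, the letters recognised by GATA factors, CAGCTG, an E-box form bound by the MyoD family, and the CArG box, bound by serum response factor, on either strand. None of these matches overlap one another.
Mylk3, cardiac myosin light chain kinase, chr8:85381042-85381291, minus strand: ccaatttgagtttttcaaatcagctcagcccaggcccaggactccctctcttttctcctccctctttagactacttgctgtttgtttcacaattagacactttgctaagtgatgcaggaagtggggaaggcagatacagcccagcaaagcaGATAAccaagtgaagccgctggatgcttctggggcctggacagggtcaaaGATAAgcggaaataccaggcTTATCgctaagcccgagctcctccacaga
Myl7, atrial regulatory light chain, chr11:5898783-5899032, minus strand: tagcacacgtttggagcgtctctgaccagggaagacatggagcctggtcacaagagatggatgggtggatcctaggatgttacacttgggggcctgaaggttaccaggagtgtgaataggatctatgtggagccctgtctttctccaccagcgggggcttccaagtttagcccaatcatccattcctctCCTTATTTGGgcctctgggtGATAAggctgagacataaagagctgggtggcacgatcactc
Actc1, cardiac alpha-actin, chr2:114052876-114053125, minus strand: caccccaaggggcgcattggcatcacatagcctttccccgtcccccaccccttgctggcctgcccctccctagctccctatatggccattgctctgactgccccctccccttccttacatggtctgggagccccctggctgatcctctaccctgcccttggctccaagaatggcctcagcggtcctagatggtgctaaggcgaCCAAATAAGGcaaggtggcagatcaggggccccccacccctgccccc
Acta1, skeletal alpha-actin, chr8:123894776-123895025, minus strand: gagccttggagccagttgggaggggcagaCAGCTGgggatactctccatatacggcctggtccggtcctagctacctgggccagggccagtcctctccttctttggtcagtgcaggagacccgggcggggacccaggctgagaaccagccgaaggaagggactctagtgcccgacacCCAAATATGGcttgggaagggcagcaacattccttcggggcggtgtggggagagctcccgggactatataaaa
Myh4, fast IIb myosin heavy chain, chr11:67237562-67237811, plus strand: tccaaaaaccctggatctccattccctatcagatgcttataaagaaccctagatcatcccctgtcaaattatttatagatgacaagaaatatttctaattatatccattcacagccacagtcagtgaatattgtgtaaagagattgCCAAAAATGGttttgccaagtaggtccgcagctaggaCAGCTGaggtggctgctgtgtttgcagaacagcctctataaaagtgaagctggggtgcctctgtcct
Mylpf, fast regulatory light chain, chr7:127211358-127211607, plus strand: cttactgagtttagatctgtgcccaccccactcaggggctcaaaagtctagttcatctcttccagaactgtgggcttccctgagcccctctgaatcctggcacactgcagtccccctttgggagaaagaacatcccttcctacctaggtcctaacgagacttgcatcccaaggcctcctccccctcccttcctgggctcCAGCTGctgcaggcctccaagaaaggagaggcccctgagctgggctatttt

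The windows searched also took in the 50 bases after each start. RefSeq gave windows for 11 of 12 measured contractile genes of heart muscle (16 windows). It gave 11 windows for 11 of 19 measured contractile genes of fast and other skeletal fibres. The latter are termed fast windows here, though they include slow-type Mybpc1, which holds CAGCTG. Genes with several starts have more than 1 window, so windows of a gene are not separate members. GATAA stood in 8 of the 16 heart windows (7 of 11 genes) and in 1 of the 11 fast windows, against 25.4% of all 32851 promoter windows. CAGCTG stood in 3 of the heart windows and in 7 of the fast windows, against 16.3% of all windows. In the 16 windows of genes shared by heart and slow fibres, GATAA stood in 6 and CAGCTG in 7, each in 5 of 11 genes. In the 9 windows of the skeletal calcium genes they stood in 1 and 3. The CArG box was found in 3 heart windows and 2 fast windows, against 1.63% of all, and the actin pair of both tissues carried it. CATTCC was in 5 heart and 6 fast windows (14.7% of all), and TATAAA in 2 and 6 (13.6%). A loose form of the MEF2 motif, with any base allowed at its middle positions, was in 1 and 0 (3.69%). The stricter MEF2 motif was not counted. All the counts given here are matches of letters in a window, not binding sites.

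Of the 18193 genes, 14902 (81.9%) differed in percentile between heart and skeletal muscle in limma at a Benjamini-Hochberg adjusted p under 0.05. Of these, 7344 were higher in heart (40.4% of all genes) and 7558 lower (41.5%). These shares are the background for the counts of called members in the lists that follow. With 30 animals very small differences pass, so calls were also counted at 20 points or more: 429 genes were higher in heart by that much (2.36%) and 492 lower (2.7%), and 866 of these 921 (5.06%) had the same sign in all 30 animals. All 30 heart arrays lay above all 30 skeletal muscle arrays for 1519 genes (8.35%), and below them for 1473 (8.1%). The split into higher and lower depends on the scale. It was 5520 higher and 10034 lower with log2 values centred on each array's median, which moved the median gene by -0.18, and 14025 higher and 2678 lower when centred on ribosomal protein genes, which moved it by 0.57.

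**Figure D1:**
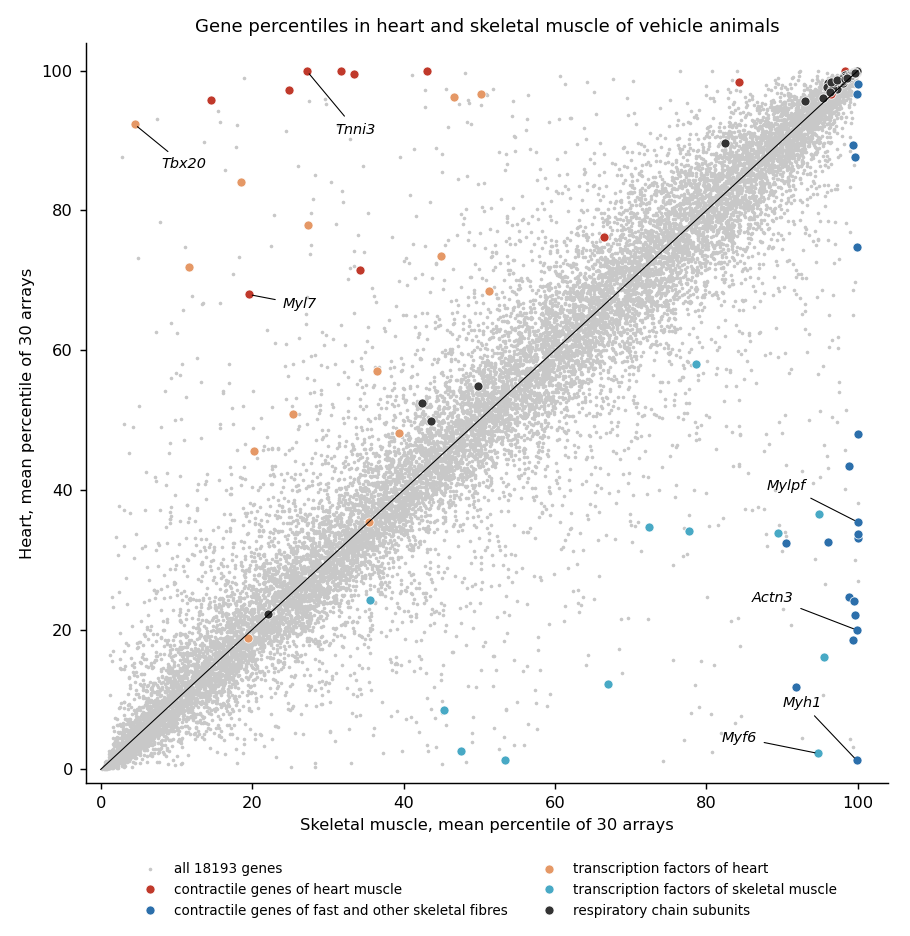
Mean percentile of each of 18193 genes over 30 heart arrays (vertical axis) and 30 skeletal muscle arrays of the same mice (horizontal axis), with members of 5 lists in colour and the line of equal percentiles. Heart contractile genes sit high on the left, and contractile genes of fast and other skeletal fibres low on the right. Most respiratory chain subunits sit near the top of the line of equal percentiles.

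The 12 largest differences toward heart among bright genes were led by genes of cardiac identity and of the intercalated disc. Tbx20, a cardiac T-box transcription factor, lay at percentiles 89.2 to 94.7 (median 92.2) in hearts and 0.366 to 13.2 (median 3.83) in skeletal muscle, a difference of 87.8 points, SE 0.620 (limma adjusted p 3.8e-41, higher in heart in 30 of 30 animals). Tecrl, an endoplasmic reticulum protein whose loss causes arrhythmia in people, lay at 89.99 to 95.8 (median 93.3) in hearts and 2.405 to 27.7 (median 6.54) in skeletal muscle (85.7 points). For both genes the groups were wide apart. The desmosome genes Dsp, Dsc2 and Dsg2, which hold heart muscle cells together at the discs, differed by 79.98, 76.9 and 74.2 points. Dsp lay at 98.7 to 99.2 (median 98.97) in hearts and 1.61 to 64.8 (median 18.5) in skeletal muscle, so its skeletal muscle arrays were spread widely but none reached the lowest heart. Kcnip2, a subunit of the transient outward potassium channel, differed by 78.8 points, Nppb, which encodes brain natriuretic peptide, by 68.2, and Ptgds, a prostaglandin D synthase, by 67.9. The other 4 of the 12 largest, Mylk3, Tnni3, Nebl and Myh6, are sarcomere genes and are described with them. Dsp, Dsc2, Dsg2 and Ptgds are also bright in liver (median percentiles 90.3, 92.6, 94.6 and 94.04 there), and none of them met the criterion used here for liver-like genes in heart.

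Toward skeletal muscle, the 12 largest differences among genes at a mean percentile of 90 or more there, with liver-like and adipose-like genes left out, included fast myosins, a purine enzyme and a Hox gene. Myh1, the IIx fast myosin heavy chain, lay at 0.366 to 2.74 (median 1.24) in hearts and 99.5 to 99.9 (median 99.9) in skeletal muscle, the most negative difference of any gene named here (-98.6 points, SE 0.213, adjusted p 4.1e-55, lower in heart in 30 of 30 animals). Myhas, named as an antisense gene of the myosin heavy chains, followed at -96.2 points. Ampd1, the muscle form of AMP deaminase, lay at 2.42 to 8.84 (median 4.302) in hearts and 98.3 to 99.3 (median 98.9) in skeletal muscle. Every skeletal muscle array had it near the top and every heart near the bottom. Myf6, a myogenic regulatory factor, differed by -92.5 points, Hoxc10, a posterior Hox gene, by -88.1, and Lbx1, a homeobox gene of migrating limb muscle precursors, by -79.5. The remaining 6, Mybpc1, Myoz3, Actn3, Myh4, Myoz1 and Myh2, belong to the sarcomere.

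All 12 of 12 contractile genes of heart muscle were measured and were called higher in heart, 8 of them by 20 points or more, with a median difference of 52.6 points; over all genes the median was -0.113. Without the animals left out for hepatocyte, adipocyte or kidney markers, 10 or 11 of the 12 were called. Nexn, the actin-binding protein nexilin, differed by 0.249 points and lost its call in each of these settings. Its log2 difference centred on array medians was negative (-0.54). Myl4, the atrial essential light chain, lost its call without the 10 animals with the most adipocyte signal in heart (4.18 points, limma adjusted p 0.447). Tnni3, cardiac troponin I, ranked 8 to 14 from the top in the 30 hearts and 11809 to 15181 in skeletal muscle, which is 99.9 to 99.96 (median 99.9) in hearts and 16.6 to 35.1 (median 27.9) in skeletal muscle in percentiles and a difference of 72.7 points, SE 0.719. Tnnt2, cardiac troponin T, lay at 99.9 to 99.97 (median 99.95) in hearts and 29.5 to 56.1 (median 43.9) in skeletal muscle (56.9 points). The groups of both troponins stood apart without overlap. Myh6, the fast alpha-myosin heavy chain of the adult rodent ventricle, lay at 99.9 to 99.95 (median 99.9) in hearts and 17.9 to 44.5 (median 30.4) in skeletal muscle (68.2 points). Mybpc3, cardiac myosin binding protein C, lay at 99.3 to 99.7 (median 99.6) in hearts and 30.2 to 36.5 (median 33.3) in skeletal muscle (66.1 points, SE 0.298), with narrow ranges in both tissues. Mylk3, the kinase of cardiac myosin light chain, lay at 94.6 to 97.6 (median 95.8) in hearts and 9.06 to 21.7 (median 14.7) in skeletal muscle (81.3 points), and Nebl, the cardiac nebulin-like thin filament protein nebulette, differed by 72.3 points with its 3 probe sets, ranked among all probe sets, between 65.8 and 84.6.

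The 19 measured contractile genes of fast and other skeletal fibres went the other way as a block: all 19 were called lower in heart, 15 by 20 points or more, all 19 without overlap of arrays, and the median was -64.6 points. Myh4, the IIb heavy chain, lay at 17.3 to 27.1 (median 21.8) in hearts and 99.3 to 99.7 (median 99.6) in skeletal muscle (-77.5 points). Myh2, the IIa heavy chain, lay at 21.5 to 28.04 (median 24.5) in hearts and 88.01 to 99.9 (median 99.6) in skeletal muscle (-74.2 points). Mybpc1 and Actn3, slow-type myosin binding protein C and the fast-fibre alpha-actinin of the Z-disc, differed by -80.7 and -79.9 points, and Myoz3 and Myoz1, Z-disc proteins that bind calcineurin, by -80.03 and -75.3. Because they are the counterparts of cardiac members, the fast troponins, light chain and actin were added after their values were seen. Tnni2, fast troponin I, lay at 42.8 to 54.3 (median 47.7) in hearts and ranked 2 from the top in every skeletal muscle. Tnnt3 and Tnnc2, fast troponins T and C, differed by -66.8 and -66.3 points and Mylpf, the fast regulatory light chain, by -64.6. Within the striated actins the contrast was small in percentile points, since both lie near the top, but not in ranks. Actc1 ranked 4 to 7 in hearts and 46 to 967 in skeletal muscle (1.72 points). Acta1 ranked 97 to 862 in hearts and 5 to 14 in skeletal muscle (-1.83 points). With log2 values given a common distribution by rank, the differences were 1.31 for Actc1 and -1.33 for Acta1. Both tissues thus had both actins among their brighter genes, and the arrays of the tissues did not overlap for either.

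**Figure D2:**
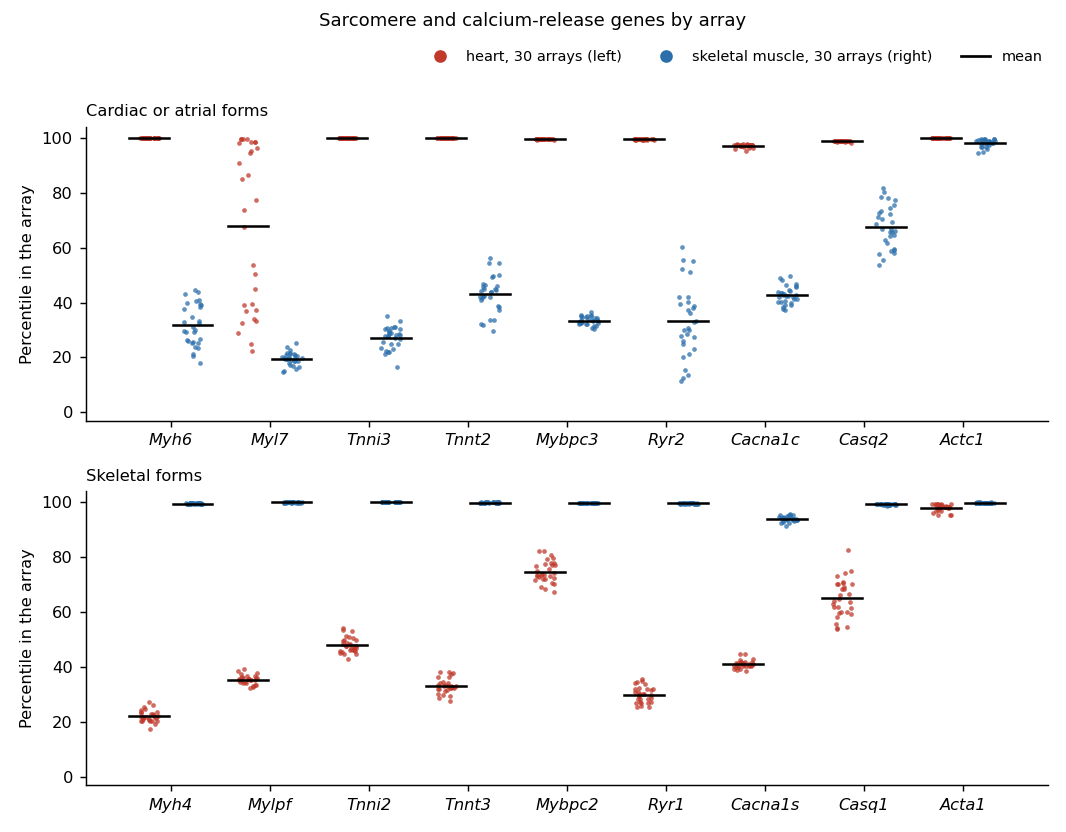
Percentile in each array (vertical axis) of 9 cardiac or atrial forms and 9 skeletal forms of sarcomere and calcium-release genes, with hearts on the left and skeletal muscle on the right of each gene and black bars for means of 30 arrays. Tissues are separate for each gene shown except Myl7, whose hearts run from 22.4 to 99.8.

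Genes that the heart shares with slow fibres were mostly higher in heart. Of 12 measured, 10 were called higher, 1 lower and 4 were higher by 20 points or more (median 11.8 points). That count was 2 without the 10 animals with the most hepatocyte signal in skeletal muscle (median 9.36). Pln, phospholamban, the brake on the SERCA calcium pump, lay at 99.6 to 99.7 (median 99.7) in hearts and 39.7 to 56.3 (median 48.7) in skeletal muscle (51.6 points). Tnnc1, the troponin C of heart and slow fibres, ranked 3 from the top in every heart, while its percentile in skeletal muscle ran over 42.4 to 98.8 (median 80.5). Myl2, the ventricular and slow regulatory light chain, ranked 4 to 9 in hearts, against percentiles of 34.3 to 98.6 (median 87.8) in skeletal muscle. Myl3, the matching essential light chain, ranked 2 in every heart, against percentiles of 34.3 to 98.997 (median 94.7) in skeletal muscle. Every heart lay above every skeletal muscle for these 3 genes, whose skeletal muscle values ran over more than 50 points. Myh7, the slow heavy chain, which is also the beta-myosin of the heart, lay at 75.04 to 93.6 (median 86.8) in hearts and 31.3 to 96.9 (median 63.6) in skeletal muscle, and was higher in heart in 22 of 30 animals (22.01 points, SE 3.94, adjusted p 7.9e-06). Tnni1, slow troponin I, was the exception: it lay at 25.6 to 39.4 (median 30.5) in hearts and 33.5 to 86.2 (median 52.3) in skeletal muscle and was lower in heart in 30 of 30 animals (-23.3 points). Tnnt1, slow troponin T, did not pass the test (2.81 points, SE 3.19, adjusted p 0.42, higher in heart in 15 of 30 animals).

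Structural genes common to all striated muscle were close to equal. Of 24 listed genes 22 were measured, of which 9 were called higher and 10 lower with a median of -0.0412 points, and 17 lay at or above the 90th percentile in both tissues. A few members stood apart. Fhl2, a LIM protein of the heart, lay at 99.2 to 99.5 (median 99.4) in hearts and 31.3 to 47.1 (median 41.1) in skeletal muscle (58.3 points), and Ankrd1, the cardiac ankyrin repeat protein, at 98.8 to 99.5 (median 99.3) in hearts and 44.3 to 85.4 (median 59.3) in skeletal muscle (38.7 points). Its relative Ankrd2 differed by -48.8 points, with 32.4 to 50.5 (median 36.9) in hearts and 44.8 to 97.9 (median 87.02) in skeletal muscle. Ckm, muscle creatine kinase, differed by -3.49 points, Hspb7, a small heat shock protein, by 15.4, and Xirp1, a scaffold of cell junctions, by 3.51. Under centring on the array medians the list's median was -0.93 on the log2 scale against -0.18 for all genes. Under centring on ribosomal protein genes it was -0.17 against 0.57. With log2 values given a common distribution by rank it was -0.032 against -0.011. The near equality thus belongs to the scales made from ranks.

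Calcium release and uptake separated the tissues by gene family. Of 12 genes of the cardiac release machinery, 8 were called higher in heart, 6 by 20 points or more (median 21.1), and of 13 genes of the skeletal machinery 12 were called lower, all 12 by 20 points or more and without overlap (median -53.04). The ryanodine receptors, which release calcium from the sarcoplasmic reticulum, mirrored each other. Ryr2 lay at 99.3 to 99.6 (median 99.5) in hearts and 11.3 to 60.3 (median 31.8) in skeletal muscle (66.3 points), and Ryr1 at 25.3 to 35.7 (median 29.9) in hearts and 99.5 to 99.7 (median 99.6) in skeletal muscle (-69.7 points). Cacna1c, the pore of the cardiac L-type calcium channel, lay at 95.1 to 97.9 (median 97.4) in hearts and 37.4 to 49.7 (median 42.6) in skeletal muscle (54.5 points), and its skeletal counterpart Cacna1s, named for that pairing after its values were seen, at 38.6 to 44.8 (median 40.99) in hearts and 91.4 to 95.6 (median 94.1) in skeletal muscle (-53.04 points). Cacnb2, a channel subunit, differed by 53.2 points, the sodium-calcium exchanger Slc8a1 by 32.6 and Casq2, cardiac calsequestrin, by 31.1.

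Among the skeletal members, Pvalb, the calcium buffer parvalbumin of fast fibres, differed by -73.1 points, Cacng1, a subunit of the skeletal channel, by -69.1, Atp2a1, the fast SERCA pump, by -61.8, Stac3, a protein of excitation-contraction coupling, by -58.8 and Jsrp1, a sarcoplasmic reticulum protein, by -53.1. Atp2a1 lay at 35.04 to 43.1 (median 37.97) in hearts and 99.9 to 99.98 (median 99.9) in skeletal muscle. Sln, sarcolipin, which regulates SERCA, was the member without a call (-2.55 points, SE 5.51, limma adjusted p 0.67). Its hearts ranged over 7.16 to 94.4 (median 38.1) while skeletal muscle ranged over 32.7 to 58.2 (median 43.99). Probe sets of Sln, ranked among all probe sets, differed in opposite directions by at least 5 points each way, so the result rests on the chosen probe set. The members that went against the cardiac list were Trdn, Asph, Jph2 and Hrc, which encode triadin, junctin, junctophilin and a calcium-binding protein of the reticulum. All 4 were called lower, by 0.819 to 2.05 points and lay above the 90th percentile in all arrays of both tissues. Ryr2 in skeletal muscle followed the adipocyte markers over the 30 arrays (r of at least 0.7). Without the 10 animals with the most adipocyte marker signal in skeletal muscle, 8 genes of the cardiac list were called higher and 4 lower, as with all animals. With adipose-like genes out of the ranks Ryr2 leaves the list, and the median of the other 11 members was 11.2 points. The 6 probe sets of Trdn, ranked among all probe sets, differed by -23.4 to 25.7 points, and with the median over each gene's probe sets Trdn and Asph were higher in heart, by 6.18 and 11.996 points.

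Ion channels and gap junctions of the heart were higher there for 14 of 17 measured genes (of 20 listed), 9 by 20 points or more, with 1 lower and a median of 22.2 points. Kcnj5, a subunit of the acetylcholine-gated potassium channel, lay at 84.6 to 91.3 (median 87.5) in hearts and 0.256 to 5.11 (median 3.07) in skeletal muscle (84.9 points). Kcnj3, its partner subunit, differed by 50.9 points. Of the transient outward channel, the pore subunits Kcnd2 and Kcnd3 differed by 70.5 and 53.7 points and their partner Kcnip2 lay at 92.7 to 95.6 (median 94.2) in hearts and 9.699 to 20.2 (median 15.4) in skeletal muscle. Kcnk3, a background potassium channel, differed by 40.1 points, with skeletal muscle at 30.7 to 87.2 (median 52.1); there it was adipose-like, a term explained with the adipocyte markers. Kcnj2, an inward rectifier, was the member called lower (-3.496 points), though its log2 difference centred on ribosomal protein genes was positive (0.32). Probe sets of one gene could disagree: ranked among all probe sets, the 3 of Kcnip2 differed between tissues by -4.83 to 75.2 points, and the 4 of Kcnd2 by -1.39 to 75.4.

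The neuromuscular junction and fibre excitability genes were lower in heart for 9 of 12 measured genes (of 13 listed), 5 by 20 points or more, with 2 higher and a median of -13.4 points. The acetylcholine receptor subunits Chrna1, Chrne and Chrnb1, which form the adult receptor with the delta subunit, differed by -50.7, -37.9 and -29.8 points. Chrna1 lay at 15.8 to 30.6 (median 21.5) in hearts and 59.1 to 80.3 (median 73.4) in skeletal muscle. Clcn1, the chloride channel that sets the fibre's resting excitability, differed by -41.3 points, Musk, the kinase that organises the junction, by -39.8 and Ache, acetylcholinesterase, by -18.9. Colq, the collagen tail of acetylcholinesterase, and Lrp4, the agrin receptor, were called higher in heart, by 4.398 and 2.59 points.

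Transcription factors of each tissue were mostly higher in it. Of 14 factors of the heart, 12 were called higher, 10 by 20 points or more, and none lower (median 27.002 points). Gata4, a zinc finger factor of heart development, lay at 81.6 to 86.3 (median 84.04) in hearts and 13.9 to 22.5 (median 19.2) in skeletal muscle (65.6 points), and Gata6 differed by 50.5 points. Irx4, the ventricular Iroquois factor, lay at 66.9 to 74.6 (median 72.2) in hearts and 7.92 to 15.6 (median 11.7) in skeletal muscle (60.2 points), Myocd, the serum response factor partner myocardin, differed by 49.5 points and Hopx, a homeodomain-only protein, by 46.4. Hand1 and Isl1, factors of the embryonic heart fields, did not pass the test (-0.0366 and -0.703 points, adjusted p 0.94 and 0.35) and were named after their values were seen.

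All 12 measured factors of skeletal muscle (of 14 listed) were called lower in heart, 11 by 20 points or more, with a median of -48.5 points. Myf6, the myogenic factor of adult fibres, lay at 1.09 to 3.75 (median 2.27) in hearts and 90.1 to 96.8 (median 95.1) in skeletal muscle (-92.5 points, SE 0.374). Myf5 and Myog, of the same family, differed by -52.1 and -54.8 points. Lbx1 lay at 12.002 to 22.5 (median 15.7) in hearts and 91.5 to 96.8 (median 95.8) in skeletal muscle, and Tbx15, a T-box factor linked to fast glycolytic fibres, and Eya4, a transcriptional cofactor, differed by -58.2 and -55.6 points. No skeletal muscle array overlapped a heart for any of the 12.

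Hox genes, which record position along the body axis, were lower in heart for 14 of 15 measured (of 18 listed), 9 by 20 points or more and 11 without overlap (median -35.6 points). Hoxc10 lay at 2.44 to 8.06 (median 4.13) in hearts and 89.01 to 94.7 (median 92.9) in skeletal muscle (-88.1 points), Hoxa10 at 0.355 to 6.96 (median 2.303) in hearts and 69.2 to 84.5 (median 81.8) in skeletal muscle (-78.2 points), Hoxc8 differed by -73.03 points and Hoxa9 by -70.1. Hoxd9 and Hoxd8 differed by -40.9 and -39.9 points. Hoxb7 was the member without a call (0.616 points, adjusted p 0.12), at or under the 10.6 percentile in every array of both tissues.

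Of 7 natriuretic peptide genes, 4 were called higher in heart and 3 lower. Nppb lay at 88.4 to 98.2 (median 96.4) in hearts and 22.3 to 32.5 (median 27.7) in skeletal muscle (68.2 points, SE 0.528), and Corin, the protease that activates the atrial peptide, at 86.6 to 94.4 (median 91.7) in hearts and 3.23 to 43.7 (median 22.7) in skeletal muscle (66.9 points). Nppa, the atrial peptide itself, lay at 63.1 to 99.9 (median 98.2) in hearts and 21.95 to 36.1 (median 29.97) in skeletal muscle (65.5 points), so its hearts spread further than those of Nppb. The receptor genes differed less, Npr3, the clearance receptor, which was adipose-like in skeletal muscle, by 7.68 points, Npr1, the receptor of both cardiac peptides, by -4.72 and Npr2 by -1.92, and Nppc, the C-type peptide, differed by -8.36. Centred on ribosomal protein genes, the log2 differences of Npr1 and Npr2 were positive (0.22 and 0.42).

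**Figure D3:**
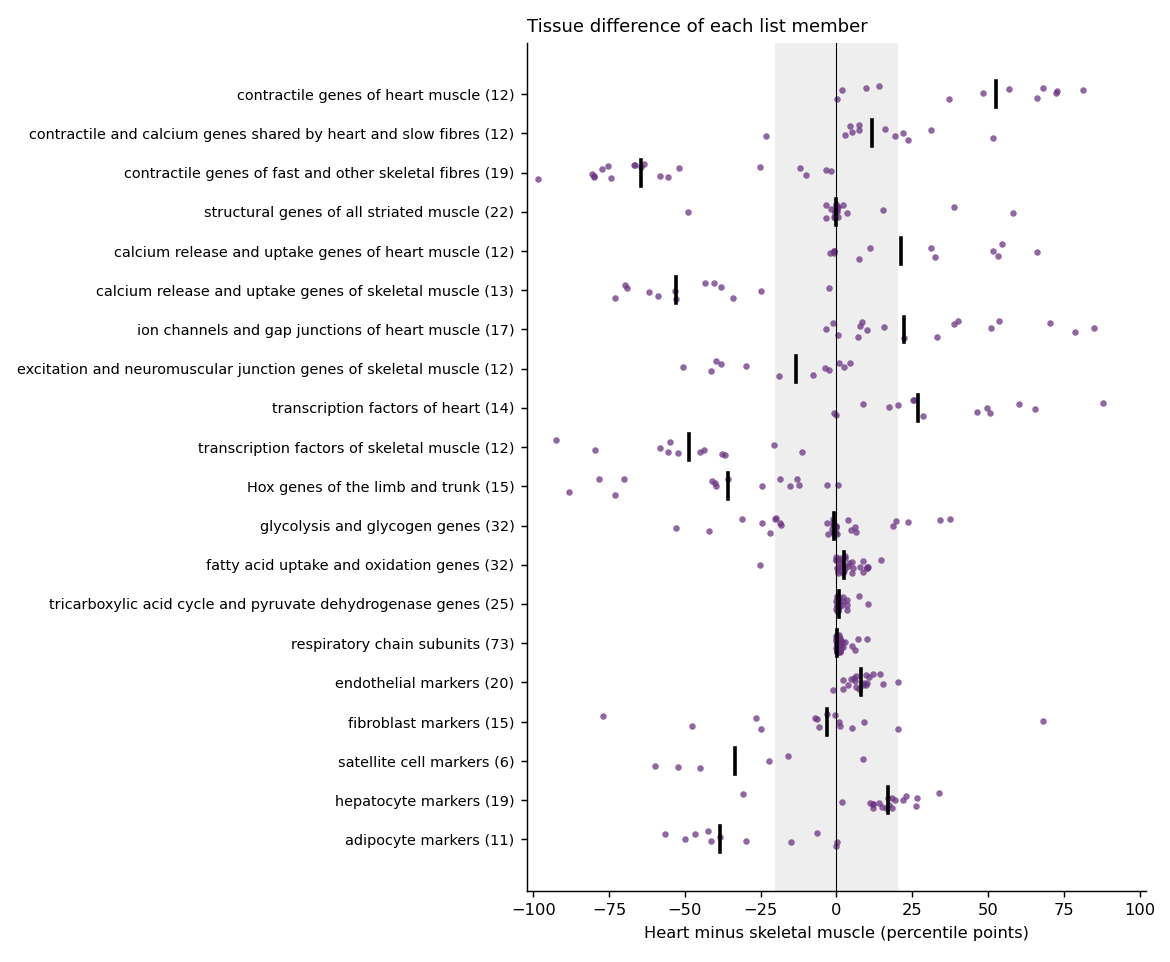
Heart minus skeletal muscle difference in percentile points (horizontal axis) of each measured member of 20 lists (rows, with the number of members), with the median of each list as a black bar and differences under 20 points shaded. The lists of heart and of fast skeletal fibres lie on opposite sides, and the tricarboxylic acid cycle and respiratory chain lists lie inside the shaded band. Most members of those last lists are near the top in both tissues and could not lie outside it.

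Genes of glucose handling differed in both directions. Of 32 measured glycolysis and glycogen genes (of 37 listed), 10 were called higher in heart and 21 lower, 3 and 7 of them by 20 points or more, and the median was -0.956 points. Slc16a3, the lactate exporter of glycolytic fibres, lay at 40.1 to 45.3 (median 43.1) in hearts and 92.7 to 97.97 (median 96.3) in skeletal muscle (-52.9 points, SE 0.385). Pfkfb3, which makes the activator of phosphofructokinase, lay at 49.5 to 67.1 (median 55.4) in hearts and 91.6 to 98.7 (median 97.9) in skeletal muscle (-42.01 points), and Phkg1, the catalytic subunit of phosphorylase kinase, differed by -31.2 points. Hk1, a widely used hexokinase, lay at 82.2 to 87.4 (median 84.7) in hearts and 43.7 to 54.6 (median 46.8) in skeletal muscle (37.4 points, SE 0.454). Pygb, the brain form of glycogen phosphorylase, and Pfkp, the platelet form of phosphofructokinase, differed by 34.2 and 23.8 points, and Pfkl, the liver form, by 19.7. Pygb, Pfkp, Pfkl and 2 more of the 32 genes were adipose-like in skeletal muscle. Without the 10 animals with the most adipocyte marker signal in skeletal muscle, 10 members were higher and 20 lower.

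Energy buffering genes were led by Ampd1, described with the largest differences; of 12 measured, 7 were called higher in heart and 4 lower. Ckb, brain-type creatine kinase, differed by 25.2 points, Ampd3, the red cell form of AMP deaminase, by 13.2, Ak4, a mitochondrial adenylate kinase, by 11.9, Ckmt1, a mitochondrial creatine kinase, by 6.95 and Ak3, of the mitochondrial matrix, by 6.16. Ckm, Ampd2 and Ak1 were called lower, by 3.49, 5.06 and 0.699 points, though Ampd2 was higher on log2 values centred on ribosomal protein genes (0.25).

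Fatty acid uptake and oxidation genes were mostly higher in heart by small steps: 27 of 32 measured (of 35 listed) were called higher and 2 lower, none higher by 20 points, with a median of 2.62 points, and 21 lay at or above the 90th percentile in both tissues. Acot1 and Acot2, which release fatty acids from coenzyme A, differed by 14.8 and 10.4 points. Cpt1a, the liver form of the carnitine transferase of the outer mitochondrial membrane, differed by 9.97 points, Hadha, the trifunctional protein's alpha subunit, by 9.95 and Gpihbp1, which anchors lipoprotein lipase to capillaries, by 9.97. Hadha lay at 94.8 to 96.5 (median 95.99) in hearts and 79.1 to 92.8 (median 85.6) in skeletal muscle. The exceptions were Ucp3, a mitochondrial carrier of skeletal muscle, which lay at 41.6 to 68.7 (median 51.6) in hearts and 66.1 to 85.7 (median 79.6) in skeletal muscle (-25.3 points, SE 0.856), and Hadh (-0.121 points). In skeletal muscle 13 of the 32 genes, Hadha among them, were adipose-like, and the adipocyte marker mean ran from 66.99 to 95.9 there. Without the 10 animals with the most such signal, 27 were higher and 1 lower, with a median of 3.26 points. With the adipose-like genes out of the ranks, the median of the 19 members left was 1.43 points.

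Mitochondrial genes common to both tissues were near the top of both. Of 25 measured genes of the tricarboxylic acid cycle and pyruvate dehydrogenase (of 27 listed), 21 were called higher in heart and none lower (median 0.698 points). Of 73 respiratory chain subunits (of 77 listed), 60 were called higher and none lower (median 0.302 points). In both tissues 23 of the 25 and 68 of the 73 lay at or above the 90th percentile. Such genes cannot differ by 20 points, so that no member of either list did is no measure of similarity. The largest were Suclg2, a succinate-CoA ligase subunit (10.5 points), Idh2, mitochondrial isocitrate dehydrogenase (7.55), and Got1 and Dld (3.51 and 3.49). Among the subunits, Cox4i2 and Cox8a of cytochrome oxidase differed by 9.94 and 7.25 points, and Cox8a was adipose-like in skeletal muscle. The direction of these lists turned with the scale. After centring on array medians the log2 medians were -0.45 for the cycle and -0.63 for the chain against -0.18 over all genes. After centring on ribosomal protein genes they were 0.30 and 0.13 against 0.57. On both centred scales the lists thus lay below the median gene. With log2 values given a common distribution by rank they lay above it, at 0.30 and 0.20 against -0.011. Of the 3 measured ketone body genes (of 5 listed), Bdh1, which oxidises the main circulating ketone body, lay at 85.1 to 93.4 (median 90.8) in hearts and 43.3 to 82.7 (median 63.6) in skeletal muscle (26.1 points), and Acat1 and Oxct1, the next steps of ketone use, differed by 1.88 and 1.11 points. On log2 values centred on array medians Acat1 did not pass (0.0125, limma adjusted p 0.724) and Oxct1 was lower in heart (-0.22).

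Nuclear receptors and coactivators of energy metabolism, the class that holds the targets of the study's compounds, were split, with 6 of 18 higher and 9 lower. Over all genes 40.4% were higher and 41.5% lower. The list's median was -0.491 points (0.984 without the 10 animals with the most adipocyte signal in skeletal muscle). Esrrb, an estrogen-related receptor, lay at 70.3 to 75.1 (median 72.3) in hearts and 34.7 to 61.4 (median 48.8) in skeletal muscle (22.9 points), and Esrrg differed by 10.6 points. Ppara, the target of WY14643, lay at 65.03 to 74.8 (median 69.97) in hearts and 39.3 to 70.8 (median 52.99) in skeletal muscle (15.2 points) and was adipose-like in skeletal muscle. The orphan receptors Nr4a1 and Nr4a2 and the retinoid X receptor Rxra were lower in heart by 21.1, 14.7 and 10.8 points. Pparg, the target of rosiglitazone, and Ppard, the target of GW501516, were added because the study targets them: Pparg lay at 51.3 to 59.4 (median 55.7) in hearts and 45.6 to 88.9 (median 60.8) in skeletal muscle and differed by -6.45 points. It was also adipose-like in skeletal muscle, and without the 10 animals with the most adipocyte signal there it differed by 2.20 points and did not pass (adjusted p 0.23). Ppard differed by -1.85, and its log2 difference centred on ribosomal protein genes was positive (0.55).

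Of 12 measured muscle growth and protein breakdown genes (of 15 listed), 9 were called lower in heart and 3 higher. The shares over all genes were 41.5% and 40.4%. Fst, follistatin, which binds myostatin, differed by -25.9 points, Acvr2b, the myostatin receptor, by -18.3, Igf1, insulin-like growth factor 1, by -17.5 and Fbxo32, the ubiquitin ligase atrogin-1, by -5.32. Fstl3, follistatin-like 3, Foxo3, a forkhead factor of protein breakdown, and Cavin4, a caveolar protein of muscle, were called higher, by 8.24, 6.76 and 1.68 points. Centred on array medians, the log2 difference of Cavin4 was negative (-0.14), and with the median over probe sets Fbxo32 did not pass (-0.289 points, limma adjusted p 0.425). Of 16 measured clock genes (of 17 listed), 9 were called lower and 3 higher, none by 20 points; Npas2 and Bhlhe41, a partner and a repressor of the clock, had the largest differences (10.9 and -10.2 points). The 31 measured ribosomal protein genes (of 50 listed) had a median of 0.0275 points, with 11 higher and 8 lower and none by 20 points. Without the 10 animals with the most adipocyte signal in skeletal muscle 6 were higher. In both tissues 25 of the 31 lay at or above the 90th percentile, where differences in points are small, so this is no check of the rank scale. Centred on array medians, their log2 median was -0.74 against -0.18 over all genes.

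Among markers of other cells, endothelial markers were called higher in heart for 19 of 20 genes and lower for none, with a median of 8.14 points. Robo4 and Tie1, receptors of endothelial cells, differed by 20.4 and 15.3 points, Sox18 by 14.2, Emcn by 12.1, and Pecam1 lay at 67.6 to 75.6 (median 72.8) in hearts and 54.1 to 67.9 (median 61.4) in skeletal muscle. The array mean of the 20 markers ran over 73.4 to 78.1 (median 77.1) in hearts and 63.6 to 72.3 (median 68.6) in skeletal muscle. Fibroblast and tendon markers were split, 6 of 15 higher and 8 lower, against 40.4% and 41.5% of all genes. Tcf21, a factor of cardiac fibroblasts and the epicardium, lay at 66.98 to 78.8 (median 73.8) in hearts and 2.47 to 12.9 (median 4.599) in skeletal muscle (68.2 points), and Fbln1 differed by 20.1 points. Tnmd, a gene of tendon, lay at 3.94 to 14.7 (median 7.01) in hearts and 65.2 to 93.5 (median 86.4) in skeletal muscle (-76.9 points). Fmod, also of tendon, lay at 30.8 to 67.6 (median 47.1) in hearts and 91.3 to 99.7 (median 98.4) in skeletal muscle (-47.6 points). Thbs4 and Cilp2, matrix genes of tendon and cartilage, differed by -26.4 and -24.9. Wt1, of the epicardium, differed by 37.7 points within a mesothelium list with 5 of 9 higher and none lower, and Krtdap, of the epidermis, by -32.2 within a keratinocyte list with 1 of 7 measured (of 8 listed) higher and 5 lower.

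Satellite cell markers, which label the stem cells of skeletal fibres, were lower in heart for 5 of 6 and higher for 1. Chodl, Myf5 and Pax7 differed by -59.9, -52.1 and -44.8 points, Cdh15 by -22.2 and Calcr by -16.1. Pax7, the defining factor of satellite cells, lay at 1.8001 to 3.68 (median 2.76) in hearts and 39.4 to 56.1 (median 47.5) in skeletal muscle. Vcam1, also a gene of endothelium, was called higher (8.87 points). Schwann cell markers were lower for 5 of 7 measured (of 10 listed), led by Mbp of myelin (-26.6 points). Neutrophil markers were higher for 5 and lower for 3 of 8 (of 9 listed), with S100a8 and S100a9, calcium-binding proteins of inflammation, at 19.1 and 18.5 points. Red cell markers were higher for 2 and lower for 2 of 4 (of 8 listed), and T cell markers higher for 5 and lower for 4 of 9 (of 11 listed). Macrophage markers were higher for 8 and lower for 2 of 13, and smooth muscle and pericyte markers higher for 6 and lower for 3 of 11. Lung epithelium markers were lower for 4 and higher for none of 7 (of 8 listed). Beside these counts, 40.4% of all genes were called higher and 41.5% lower. With the 10 animals of most hepatocyte signal in skeletal muscle left out, 4 macrophage markers were higher and 2 lower, and 2 lung markers were lower and 1 higher.

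Genes of liver appeared in both tissues at levels that varied from animal to animal. The mean percentile of 19 hepatocyte markers (of 22 listed) ran over 27.1 to 82.1 (median 56.1) in hearts, 25.6 to 81.1 (median 36.6) in skeletal muscle and 99.3 to 99.7 (median 99.5) in the 30 vehicle livers. Of the 19, 17 were called higher in heart and 1 lower, 5 and 1 by 20 points or more. The 5 became 1 without the 10 animals with the most hepatocyte signal in heart, 10 without the 10 with the most adipocyte signal in skeletal muscle, 11 without the 10 with the most hepatocyte signal there, and 14 without the animals with kidney markers. A gene was termed liver-like in a tissue when it was at least 10 points higher in liver and followed the hepatocyte marker mean over the 30 arrays with an r of at least 0.7; 218 genes were liver-like in heart and 167 in skeletal muscle. Of the 429 genes higher in heart by 20 points, 20 (4.66%) were liver-like in heart, against 1.2% of all genes. Of the 218 liver-like genes, 157 (72.02%) were called higher in heart, against 40.4% of all genes. Ttr, transthyretin, had the largest difference among them, 33.9 points, with 42.6 to 97.4 (median 80.4) in hearts and 9.92 to 96.5 (median 41.7) in skeletal muscle, and Serpina1c, Cyp2d10, Cyp2c50, Cps1 and Apcs, all plasma protein or hepatic enzyme genes, followed at 29.04 to 26.5 points. Albumin, Alb, lay at 32.3 to 98.1 (median 82.3) in hearts and 30.9 to 98.2 (median 51.1) in skeletal muscle, higher in heart in 24 of 30 animals. The groups overlapped for each of these genes.

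The size of these hepatocyte differences moved with the animals used. The animals left out for hepatocyte signal were chosen by these same markers. Leaving out the highest hearts favours a smaller difference, and leaving out the highest skeletal muscles a larger one. Those shifts, in the counts above and the medians here, are therefore no test. The median of the 19 markers was 16.97 points over all animals, 10.4 without the 10 animals with the most hepatocyte signal in heart (14 called higher), 22.5 without the 10 with the most in skeletal muscle, and 24.6 without the animals with kidney markers. Over all genes, 421 were higher in heart by 20 points without the first 10 animals, against 429 with them. Cyp2e1, a liver cytochrome that fat also expresses, was the marker called lower (-30.7 points). It was liver-like in heart and adipose-like in skeletal muscle.

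**Figure D4:**
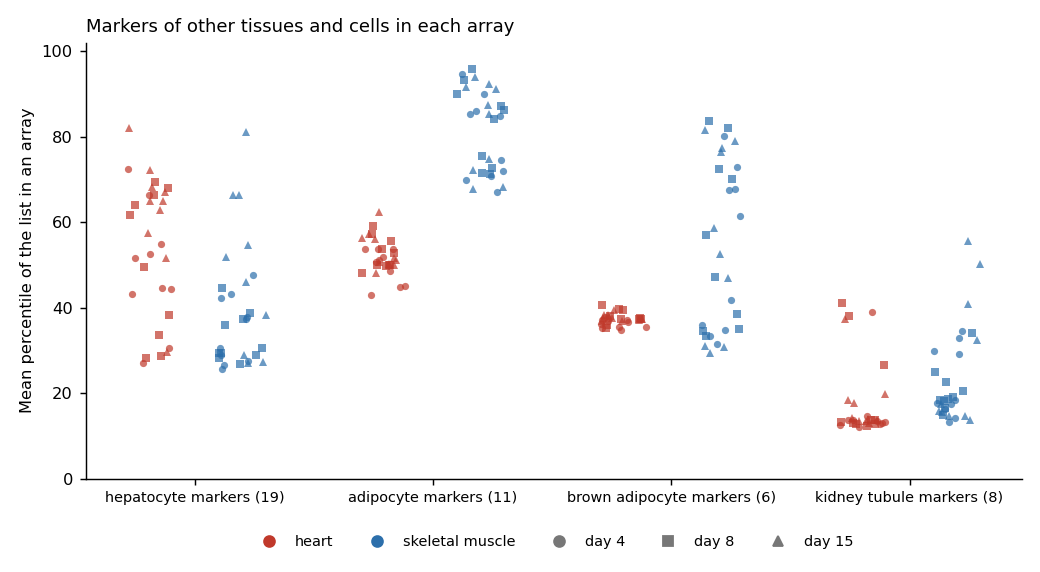
Mean percentile of the hepatocyte, adipocyte, brown adipocyte and kidney tubule marker lists in each array (vertical axis), hearts on the left and skeletal muscle on the right of each list, with a symbol for each day. Hepatocyte markers range from 27.1 to 82.1 in hearts, and adipocyte markers are at 66.99 or more in each skeletal muscle array and at 62.4 or less in each heart.

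Fat genes were brighter in skeletal muscle. The mean percentile of 11 adipocyte markers (of 14 listed) ran over 42.9 to 62.4 (median 51.1) in hearts and 66.99 to 95.9 (median 85.04) in skeletal muscle, where 13 arrays lay at 66.99 to 75.4 and the other 17 at 84.1 to 95.9. None of the 11 was called higher in heart and 9 were lower, 7 by 20 points or more. Adipoq, adiponectin, lay at 6.203 to 58.3 (median 33.2) in hearts and 72.2 to 98.9 (median 95.5) in skeletal muscle (-56.5 points, SE 2.28), Acvr1c, an activin receptor of adipocytes, differed by -49.9 points, Cidec, of the lipid droplet, by -46.6, Retn, resistin, by -42.5 and Lep, leptin, by -41.4. Fabp4, which capillary endothelium also makes, did not pass the test (-0.0630 points). The brown fat gene Ucp1 lay at 18.1 to 35.2 (median 20.9) in hearts and 28.9 to 99.7 (median 78.4) in skeletal muscle (-47.1 points) and the groups overlapped at their edges. Otop1, of brown fat, lay at 0.536 to 9.33 (median 2.98) in hearts and 21.2 to 92.3 (median 54.6) in skeletal muscle (-52.4 points). Prdm16 and Cidea, also on the brown list, were higher in heart, by 19.1 and 11.8 points, though Cidea did not pass an exact sign test over the 30 animals (adjusted p 1).

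Genes that followed the adipocyte mean with an r of at least 0.7 and were not liver-like were termed adipose-like; there were 648 in skeletal muscle and 8 in heart. In skeletal muscle the arrays fall into the 2 clusters of 13 and 17, so this criterion sorts genes by their difference between those clusters. How much of their signal came from fat was not tested. Of the 492 genes lower in heart by 20 points, 55 (11.2%) were adipose-like in skeletal muscle, against 3.56% of all genes. Of the 648 adipose-like genes, 274 (42.3%) were called lower in heart, close to the 41.5% of all genes. Besides Adipoq, Otop1, Acvr1c and Ucp1, the largest with a name was Tmem45b, a membrane protein (-48.01 points). In heart, 1 adipose-like gene was called higher, Apoe, an apolipoprotein (8.99 points). Without the 10 animals with the most adipocyte signal in skeletal muscle, 9 of 11 adipocyte markers were still called lower and 1 was called higher, with a median of -30.1 points against -38.3 over all animals. Those animals were chosen by these same markers, which favours a smaller difference. Kidney tubule markers had array means of 12.2 to 41.1 (median 13.6) in hearts and 13.3 to 55.5 (median 18.4) in skeletal muscle; 4 hearts and 7 skeletal muscles, of 10 animals, lay above 30. Kap, a kidney gene, lay at 2.87 to 90.4 (median 7.12) in hearts and 8.14 to 97.3 (median 39.7) in skeletal muscle (-21.5 points). Its call was lost without the 10 animals with the most hepatocyte signal in heart (-14.1 points, limma adjusted p 0.0748) and without the 10 with the most in skeletal muscle (-10.8 points, adjusted p 0.186). The part of kidney RNA in other differences was not tested.

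Some sarcomere genes had wide ranges within a tissue. The SD over arrays was 1.48 points for the median gene in hearts and 2.36 in skeletal muscle, and 0.863% and 1.48% of genes had an SD of at least 10 points. The genes followed here were chosen after their ranges were seen. In hearts, Myl7, the light chain of atrial muscle, lay at 22.4 to 99.8 (median 75.7), Myl4, the atrial essential light chain, at 50.02 to 99.7 (median 79.8), Sln at 7.16 to 94.4 (median 38.1) and Nppa at 63.1 to 99.9 (median 98.2), while Myh6 stayed at 99.9 to 99.95 (median 99.9). Over the 30 hearts Myl7 and Myl4 correlated with Pearson's r 0.99 and Spearman's rho 0.95, and Myl7 and Sln with 0.93 and 0.94 (all 4 with a two-sided permutation p of 1e-05, the smallest that 100000 permutations can give, and 1.2e-05 after Benjamini-Hochberg adjustment over 7 relations). Without the 2 hearts farthest from the median of Myl7, r was 0.99 and 0.93, and within days r was at least 0.92 for both pairs. Myl7 with Nppa gave r 0.32 (permutation p 0.091, adjusted 0.091) and rho 0.50 (permutation p 0.0057, adjusted 0.0057). Values of the genes come from the same arrays and share their ranks, and those of Sln rest on 1 of its disagreeing probe sets.

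In skeletal muscle the slow-fibre genes varied together. Myh7 lay at 31.3 to 96.9 (median 63.6), Tnni1 at 33.5 to 86.2 (median 52.3) and Tnnt1 at 33.1 to 97.6 (median 75.1), while Myh4 stayed at 99.3 to 99.7 (median 99.6). Over the 30 skeletal muscle arrays Myh7 correlated with Tnni1 (r 0.96, rho 0.96), Tnnt1 (r 0.96, rho 0.95), Myl2 (r 0.84, rho 0.91) and Myl3 (r 0.72, rho 0.79), each with the smallest permutation p of 1e-05. Without the 2 arrays farthest from the median of Myh7 these r were 0.96, 0.95, 0.85 and 0.69. Within day 8, r was 0.50 for Myl3 and 0.72 for Myl2, the lowest within-day values of the 4 pairs. The cause of this spread was not tested.

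**Figure D5:**
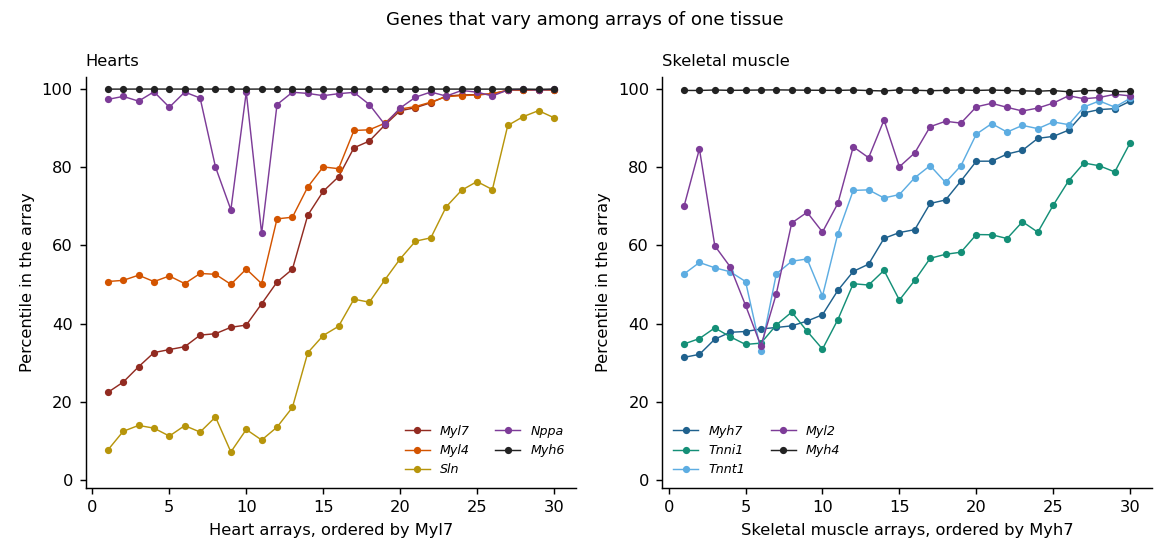
Percentile (vertical axis) of Myl7, Myl4, Sln, Nppa and Myh6 in the 30 hearts ordered by Myl7 (left), and of Myh7, Tnni1, Tnnt1, Myl2 and Myh4 in the 30 skeletal muscle arrays ordered by Myh7 (right). Myl4 and Sln climb with Myl7 while Myh6 stays near the top, and Tnni1, Tnnt1 and Myl2 climb with Myh7 while Myh4 stays near the top.

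Few genes had a tissue difference that changed between days 4, 8 and 15 of vehicle dosing. In the moderated F test 2 of 18193 genes (0.011%) were called at an adjusted p under 0.05, and 1280 had an unadjusted p under 0.05. Shld1, a DNA repair gene of the shieldin complex, differed between heart and skeletal muscle by 28.2, 17.7 and 25.5 points on days 4, 8 and 15 (adjusted p 0.0011), and Zc2hc1b, a zinc finger gene, by 2.36, -3.20 and 1.61 points (adjusted p 0.016). Without the 10 animals with kidney marker means above 30, no gene was called by this test. The next by p were Smad3, a mediator of TGF-beta signalling, Serpinb12, Ciart, a clock repressor, and Lonrf3, with adjusted p of 0.071, 0.081, 0.090 and 0.092. Between pairs of days, 5 genes were called for day 8 minus day 4 (Shld1, Zc2hc1b, Smad3, Ciart and Eepd1), none for day 15 minus day 4 and 2 for day 15 minus day 8 (Shld1 and Serpinb12). All 921 genes that differed by 20 points kept their sign on the 3 days. They were chosen by the average of these same day means, so this is no test of stability.

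Some genes moved together in the heart and the skeletal muscle of a mouse. Deviations from the tissue and day mean were correlated over the 30 animals for 14 genes of the clock, glucocorticoid and fasting responses and stress, and 11 passed at an adjusted p under 0.05 (two-sided permutation within days, adjusted over the 14), by r and by rho. Per1, a clock gene that glucocorticoids also induce, had r 0.90 and rho 0.88, and r ranged from 0.82 to 0.93 within days. Hspa1a, an inducible heat shock protein, had r 0.87 and rho 0.83, and its percentiles ran over 13.3 to 67.6 (median 31.9) in hearts and 14.98 to 69.2 (median 28.3) in skeletal muscle. Fkbp5, a glucocorticoid target, had r 0.81, Cdkn1a, the cell cycle inhibitor p21, 0.78, Ucp3 0.76, Fos, an immediate-early gene, 0.72 and Ddit4, a stress-induced inhibitor of mTOR, 0.65. Among clock genes Dbp had r 0.94, Ciart 0.85, Arntl 0.78 and Per3 0.72. The adjusted permutation p of these 11 correlations was at most 6.7e-04 for r. The share of all genes that would pass was not counted, so whether the 14 genes stand out from other genes is not known.

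These relations did not all hold on each day. Within day 4, r was -0.10 for Dbp and 0.07 for Per3, against 0.97 and 0.91 on day 8 and 0.90 and 0.57 on day 15. Fos, Arntl and Ciart were also weaker on day 4 (r 0.30, 0.43 and 0.43) than on day 8 (0.71, 0.87 and 0.86) or day 15 (0.86, 0.84 and 0.90). The rest of the genes that passed had an r of at least 0.51 on each day. Without the 2 animals farthest from the median in heart, r over all animals was 0.78 for Dbp, 0.43 for Per3 and 0.57 for Fos, and at least 0.64 for the other 8. Txnip, Pdk4 and Angptl4, genes that respond to glucose or fasting, did not pass: r was 0.30, 0.32 and 0.22, with adjusted permutation p of 0.2, 0.11 and 0.25. What moved these genes together was not tested.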

How the data were processed

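The deposited values are log2 intensities that the authors made with RMA in Partek, per the submitters' processing notes; that the tissues were normalized apart is inferred from their array medians, not stated there. No versions or genome build are given in the sources used here. RNA was extracted with miRNeasy and 100 ng was amplified and labelled with NuGEN kits, per the labels' protocols. Of 45101 probe sets, 34945 carried 1 gene, 932 several and 9160 none. Names were updated through RefSeq by gene ID for 34741 and kept from the platform table for 204. The probe set with the highest mean percentile stood for each of 18193 genes.

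Heart minus skeletal muscle percentiles of the 30 animals were tested in limma 3.58.1 (R 4.3.3, eBayes with trend), averaging the 3 day means, with Benjamini-Hochberg adjustment and no filter on dim genes; days were compared by moderated F. The mouse number in the labels pairs the tissues: deviations of the same animal correlated with a median r of 0.167 (-0.0882 to 0.294), against -0.0167 for other animals. Per array, a list's level is its members' mean percentile. The fit was tested on simulated data in which 50 genes were shifted at each log2 size. At sizes of 0.25, 0.5, 1 and 2, the fit recovered 76%, 94%, 100% and 100% of them. The share past 20 points was 0% at 0.25, 0.5 and 1, and 38% at 2. The count at 20 points thus left out all shifted genes at a size of 1 or less.

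Members and lists were chosen with earlier results of these data known. Named were the 12 genes with the largest difference each way (called, same sign in 30 animals, mean percentile of 90 or more in the higher tissue, not liver-like or adipose-like there, no predicted names), up to 6 largest members of each list and up to 4 against it, the 6 largest liver-like or adipose-like genes of each tissue, the genes tested across tissues of a mouse, and the 6 smallest day p. Other genes were named after their values were seen. Alternatives tried were other scales, probe set rules, a dim filter, tests, thresholds and animals or days left out.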

Additional observations from a re-analysis of the deposited data

Results flagged for a closer look

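In 56 of 654 groups of 10 arrays or animals screened, 1 value stood apart from the other 9 by Dixon's criterion, and chance gives about 5% of groups (1 in 20). Values are heart minus skeletal muscle differences in percentile points, grouped by the number of the mouse in the labels, and no explanation was tested.

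Mouse 43 (day 8) stood apart for Actc1 (5.29, the others 0.231 to 2.22), Apoe (-5.55, the others 4.18 to 14.1), Bhlhe41 (0.753, the others -15.3 to -7.25), Cavin4 (9.06, the others -2.22 to 3.58) and Chrnb1 (-15.2, the others -33.9 to -24.3). For mouse 43 on day 8 the outlying differences were Clcn1 (-27.4, the others -45.1 to -35.9), Eya4 (-40.9, the others -57.7 to -49.7), Hk1 (30.1, the others 35.3 to 41.01), Musk (-21.6, the others -46.1 to -33.03) and Myf6 (-87.5, the others -94.1 to -90.9). On day 8, mouse 43 lay away from the others for Stac3 (-49.5, the others -61.7 to -55.3) and Trdn (-0.682, the others -0.934 to -0.803). Mouse 1 (day 4) stood apart for Ankrd2 (-8.62, the others -59.1 to -39.6), Chrna1 (-62.2, the others -55.2 to -48.7), Dld (7.68, the others 1.69 to 4.64), Got1 (9.44, the others 1.61 to 4.58) and Hspb7 (35.9, the others 6.19 to 21.2). For mouse 1 on day 4 the outlying differences were Myh2 (-63.3, the others -75.3 to -71.6) and Nppa (35.7, the others 64.4 to 73.5). On day 8, mouse 47 lay away from the others for Dbp (-6.99, the others -2.75 to -0.258), Hoxd9 (-28.4, the others -43.8 to -38.2), Myhas (-93.9, the others -97.2 to -95.6), Shld1 (10.2, the others 16.01 to 21.01) and Xirp1 (-3.28, the others 3.06 to 8.29). Mouse 90 (day 15) stood apart for Ak1 (-1.32, the others -0.830 to -0.368), Ampd1 (-89.8, the others -96.2 to -93.2) and Txnip (-2.92, the others -1.58 to -0.269). For mouse 44 on day 8 the outlying differences were Fhl2 (64.7, the others 54.7 to 59.8), Myl2 (55.3, the others 3.61 to 19.9) and Myl3 (59.6, the others 1.52 to 9.204). On day 15, mouse 87 lay away from the others for Hoxa9 (-77.4, the others -70.8 to -67.2), Myh2 (-64.1, the others -77.8 to -73.2) and Nppa (30.9, the others 57.5 to 71.4). Mouse 82 (day 15) stood apart for Cox4i2 (2.07, the others 7.98 to 14.3) and Irx4 (53.4, the others 58.4 to 62.6). For mouse 83 on day 15 the outlying differences were Hoxb7 (4.63, the others -1.46 to 1.76) and Tbx20 (76.9, the others 83.9 to 91.4). On day 4, mouse 7 lay away from the others for Npr3 (-19.3, the others 0.132 to 16.8) and Pfkp (10.6, the others 20.9 to 32.5).

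Mouse 89 (day 15) stood apart for Cacna1s (-47.6, the others -54.1 to -51.1) and Jph2 (-0.879, the others -2.64 to -1.82). For mouse 9 on day 4 the outlying differences were Myhas (-95.5, the others -96.9 to -96.2) and Per1 (-10.7, the others -6.12 to -1.98). On day 4, mouse 2 lay away from the others for Dsc2 (61.7, the others 78.8 to 85.1). Mouse 6 (day 4) stood apart for Tbx20 (80.9, the others 86.03 to 91.3). For mouse 8 on day 4 the outlying differences were Tnni2 (-46.4, the others -55.3 to -52.03). On day 8, mouse 50 lay away from the others for Nppa (44.98, the others 61.2 to 77.8). Mouse 49 (day 8) stood apart for Myoz1 (-79.2, the others -75.3 to -73.2). For mouse 10 on day 4 the outlying differences were Chodl (-35.5, the others -74.3 to -55.3). On day 15, mouse 81 lay away from the others for Nexn (1.56, the others -0.640 to 0.467). Mouse 84 (day 15) stood apart for Fst (-40.4, the others -27.8 to -16.5). For mouse 86 on day 15 the outlying differences were Dsp (34.3, the others 65.7 to 91.7). On day 15, mouse 88 lay away from the others for Isl1 (11.6, the others -6.27 to 3.24).

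The mean percentile of the 8 kidney tubule markers was 39.1 in the heart of 1 mouse on day 4 (the others 12.2 to 14.7), 37.3 in the heart of 1 mouse on day 15 (the others 13.1 to 19.8) and 34.1 in the skeletal muscle of 1 mouse on day 8 (the others 14.8 to 24.9). Of the genes tested between days, Shld1 and Zc2hc1b had tissue differences that changed by the moderated F test of limma (adjusted p 0.0011 and 0.016). Shld1 ran from 17.7 to 28.2 points over the 3 days, and Zc2hc1b from -3.20 to 2.36.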

How the results depend on the processing

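Without the replicate block, 14755 genes were called (7266 higher in heart, 7489 lower), 429 and 492 by 20 points, and 3 genes changed between days, so the pairing of tissues by animal changed no count by over 1.5 times. On log2 scales the scale and the threshold changed together, with a log2 difference of 1 in place of 20 points, so the counts past it are not matched to those in points. They were 1438 higher and 1296 lower with a common distribution by rank, 1213 and 2044 with array medians as centre, and 4408 and 698 with ribosomal protein genes as centre. That last setting called 14025 genes higher and 2678 lower. Thresholds of 10 and 40 points gave 1409 and 99 higher and 1260 and 128 lower. With dim genes left out, 4920 were called lower, as fewer genes were tested. The count of genes that changed between days was 1 with array medians, with ribosomal genes and with dim genes left out, 4 with liver-like and adipose-like genes out of the ranks and 4 without the 10 animals with the most hepatocyte signal in heart, and 0 without the animals with kidney markers, a setting chosen after seeing the data; the cause was not tested. At an r of at least 0.5 there were 129 adipose-like genes in heart, 296 liver-like and 1294 adipose-like genes in skeletal muscle, and at 0.8 there were 105 liver-like and 353 adipose-like genes there.

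Of 210 named genes, 175 kept their direction and call in every setting run, and 12 of 3946 combinations of gene and setting reversed. Centred on ribosomal protein genes, the log2 differences of Ampd2 (0.25), Arntl (0.18), Kcnj2 (0.32), Npr1 (0.22), Npr2 (0.42), Per1 (0.18) and Ppard (0.55) turned positive. Centred on array medians, those of Cavin4 (-0.14), Nexn (-0.54) and Oxct1 (-0.22) turned negative. With the median over probe sets, Asph (11.996 points) and Trdn (6.18 points) turned positive. In the other combinations that moved, 64 lost the call and 35 gained it. Most of the losses were in Nexn, Hspa1a, Cidea, Pparg and Hadh. Acat1 and Xirp1 lost it with array medians as centre, Fbxo32 with the median over probe sets, and Dbp, Hrc, Lrp4, Myl4, Kap, Cavin4 and Npr2 in other settings.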
